A study of Mus musculus with 9 samples.

Results

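A set of 10 genes that injured neurons are known to switch on when they regrow an axon were followed in mouse spinal cord after contusion, namely Atf3, Jun, Sox11, Sprr1a, Gap43, Gal, Klf6, Klf7, Hspb1 and Basp1. They were taken by name as a list, which was chosen with earlier results of these data known. They are 10 of the 52550 genes in the count table. All 10 had enough counts to enter the tests, which covered 18699 genes. Spinal cord of adult female C57BL/6N mice was taken on day 7 from 3 groups of 3 mice each. Sham mice had the vertebral plates removed and no injury. SCI mice had a thoracic contusion of the cord and intraperitoneal injections of the solvent DMSO. SCI+FIPI mice had the same contusion and daily intraperitoneal FIPI, an inhibitor of the lipid-cleaving enzyme phospholipase D, dissolved in DMSO. No solvent injection is described for the Sham mice, so the step from Sham to SCI holds the injury and the injections together. The piece of cord that was sequenced held the injury epicenter, with all of its cell types.

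After a peripheral nerve is cut, sensory and motor neurons start a regeneration program. The transcription factors ATF3, JUN, SOX11, KLF6 and KLF7 belong to its regulators, GAP43, BASP1 and SPRR1A are found in growing axon tips, galanin is a neuropeptide made by injured neurons, and the small heat shock protein HSPB1 protects injured neurons and binds the cytoskeleton. Neurons of the adult central nervous system mount this program weakly, and several of these genes are also used by other cells, Atf3, Jun and Klf6 by macrophages and stressed cells of many kinds and Sprr1a by the cornified layer of skin.

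Each mouse gave between 20806000 and 24582377 counts, and mitochondrial genes took 4.90% to 5.49% of them in Sham, 2.96% to 3.22% in SCI and 3.21% to 3.54% in SCI+FIPI. The labelled tissue fits its defining markers, since summed neuron, astrocyte and oligodendrocyte markers were all at 2066 CPM or more in every mouse (CPM, counts per 1000000 counts of the library). Of the neuron markers, such as Snap25 and Rbfox3, 12 of 12 fell in SCI against Sham by the limits given below. In SCI+FIPI against SCI, 8 of the 12 rose and 4 did not pass, where 3.06% of all genes were called in either direction. Their summed level was 8017, 7176 and 7967 CPM in the Sham mice, 2956, 2588 and 2066 CPM in the SCI mice, and 3593, 4079 and 3459 CPM in the SCI+FIPI mice. In a whole piece of cord, fewer cells of a type and less RNA in each of them cannot be told apart.

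A gene is said below to have risen or fallen when its log2 fold change was at least 0.5 in size and its Benjamini-Hochberg adjusted p was under 0.05 in edgeR's quasi-likelihood test over all genes. By these limits 7 of the 10 genes rose in SCI against Sham (Atf3, Sprr1a, Hspb1, Gal, Klf6, Jun and Sox11), none fell, and Gap43, Basp1 and Klf7 passed neither way. Across all 18699 genes tested, 24.4% rose and 47.0% were called in either direction, with 4571 rises and 4209 falls. The median log2 fold change of the 10 was 1.32, against -0.003 for all genes. Every SCI mouse was above every Sham mouse for 9 of the 10 genes, all but Klf7, a pattern held by 35.6% of all genes.

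**Figure D1:**
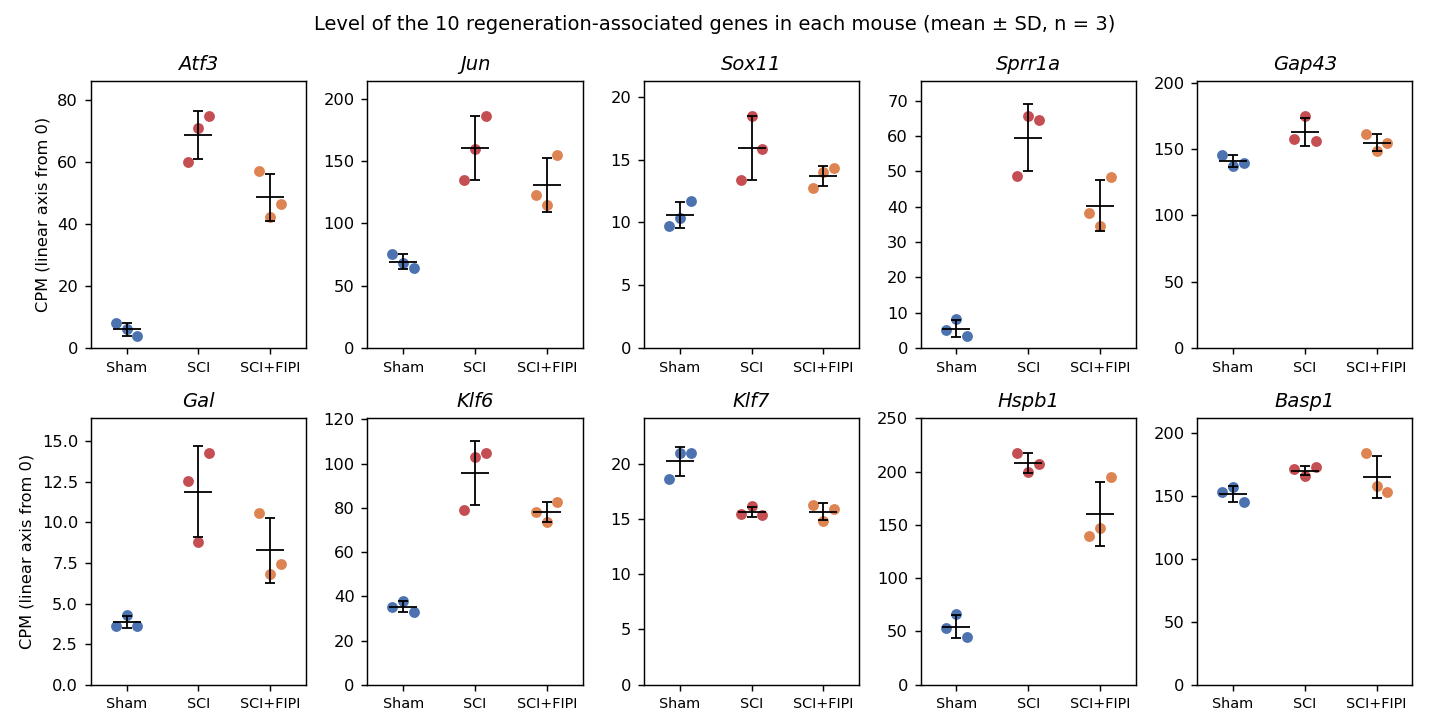
Level of each of the 10 genes in CPM (y axis, linear from 0) in the Sham, SCI and SCI+FIPI mice (x axis), with a point for each mouse and a bar at the mean ± SD. For 9 genes the SCI points lie above all Sham points, for Klf7 they lie below, and the SCI+FIPI points of 7 genes overlap with those of SCI.

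Among the transcription factors, Atf3 had the largest difference. ATF3 is a stress-induced factor of the ATF/CREB family and a widely used mark of injured neurons, and its gene lies on the minus strand of chromosome 1 (GRCm38, chr1:191170296-191218039). It measured 8.05, 6.26 and 3.97 CPM in the Sham mice, 59.9, 70.9 and 74.8 CPM in the SCI mice, and 57.0, 42.2 and 46.4 CPM in the SCI+FIPI mice. The 3 groups did not overlap, with SCI+FIPI lying between the other two. In SCI it was 11.3-fold higher than in Sham (log2 fold change 3.50 ± 0.23 SE, adjusted p = 2.35e-06, edgeR).

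Jun encodes the AP-1 subunit c-JUN, which is needed for axon regrowth in peripheral neurons (chr4:95049034-95052222, minus strand). It stood at 75.6, 67.9 and 64.1 CPM in Sham, at 135.0, 159.4 and 186.1 CPM in SCI, and at 122.4, 114.3 and 154.9 CPM in SCI+FIPI. All injured mice were above all Sham mice, while the 2 injured groups overlapped. The rise in SCI was 2.31-fold (1.21 ± 0.14 on the log2 scale, adjusted p = 6.13e-05, edgeR). The antisense gene Junos covers 7.28% of the exonic length of Jun and had 44 to 93 counts per mouse, against 1534 to 4412 for Jun. Whether reads were counted by strand is not given in the sources used here, so reads in that overlap cannot be assigned.

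Klf6 and Klf7 are 2 Krüppel-like zinc finger factors that favor axon growth. Their levels in the injured mice lay on opposite sides of Sham, but only Klf6 passed the limits. Klf6 (chr13:5861482-5870394, plus strand) was measured at 35.02, 38.1 and 33.0 CPM in Sham, 78.9, 103.1 and 105.0 CPM in SCI, and 78.1, 73.5 and 82.7 CPM in SCI+FIPI. It rose 2.71-fold in SCI (1.44 ± 0.10 on the log2 scale, adjusted p = 9.38e-08, edgeR), with no overlap between Sham and either injured group. Klf7 (chr1:64029447-64122282, minus strand) was measured at 18.6, 20.99 and 20.9 CPM in Sham, 15.5, 16.1 and 15.3 CPM in SCI, and 16.3, 14.8 and 15.8 CPM in SCI+FIPI. All injured mice were below all Sham mice, but the log2 fold change of -0.37 ± 0.09 in SCI did not reach the limit of 0.5 although its adjusted p was 0.00152 (edgeR). Once GC content and gene length were allowed for, this value was -0.20 (adjusted p = 0.0406, edgeR). Gm26649, a lincRNA gene on the opposite strand, overlaps 39.3% of the exonic length of Klf7 and had 0 counts in every mouse. As for Jun, reads in that overlap cannot be assigned without knowing whether counting used the strand.

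Sox11, a factor of neuronal development that promotes regrowth in sensory neurons (chr12:27334264-27342574, minus strand), was the weakest of the 7 rises. Its level was 9.68, 10.4 and 11.7 CPM in Sham, 13.4, 18.5 and 15.8 CPM in SCI, and 12.8, 14.03 and 14.3 CPM in SCI+FIPI. The groups with and without injury did not overlap, yet it was only 50.03% higher in SCI (0.59 ± 0.12 on the log2 scale, adjusted p = 0.000661, edgeR). Without the SCI mouse 2, which had the highest level, the log2 fold change was 0.47 and the call was lost.

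Of the genes of growing axon tips, Sprr1a stood apart. It encodes a small proline-rich protein that is almost absent from intact neurons and appears in regrowing axons, and it lies at chr3:92483952-92485895 on the minus strand. It was at 4.98, 8.25 and 3.34 CPM in Sham, 48.5, 65.7 and 64.4 CPM in SCI, and 38.1, 34.4 and 48.3 CPM in SCI+FIPI. As for Atf3, the 3 groups did not overlap, although the highest SCI+FIPI mouse and the lowest SCI mouse differed by less than 1 CPM. The rise in SCI was 10.8-fold (3.43 ± 0.31 on the log2 scale, adjusted p = 4.11e-05, edgeR). Of keratinocytes, which also make this gene, the 7 markers summed to 16.8 to 18.0 CPM in Sham, 9.26 to 13.2 in SCI and 11.2 to 13.5 in SCI+FIPI. Krt5, Krt14 and Dsg3 had at most 4 counts in any mouse, and of the 3 markers that could be tested, Krt1 and Lor fell in SCI and Krt10 did not pass. Ivl, the gene of the cornified envelope protein involucrin, named after its values were seen, had 0 counts in Sham, 4 to 9 in SCI and 1 to 2 in SCI+FIPI, too few for a test. The part of keratinocytes in the level of Sprr1a was not tested.

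Of the 9 promoter windows searched, only that of Sprr1a had the AP-1 letters, the site bound by JUN dimers, and it held them 2 times. RefSeq windows from 250 bases before to 50 bases after the start were found for 9 of the 10 genes, not for Gap43. TGANTCA (AP-1) and TGACGTCA (the CRE site of ATF and CREB factors) were searched on both strands, on which these letters read alike, as were GAANNTTC (the core of the heat shock element) and TTCNNNGAA (the STAT site). The stretch of the Sprr1a window that holds both AP-1 matches is shown 5′ to 3′ along the gene with the matches in capitals (GRCm38.p6, chr3:92485971-92486047, minus strand).
Sprr1a: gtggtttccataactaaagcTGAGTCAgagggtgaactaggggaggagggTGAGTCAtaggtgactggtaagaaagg
The matches begin 146 and 116 bases before the start and are 30 bases apart. AP-1 letters occurred in 7.81% of the 32851 windows of all genes and in 1 of the 9 windows of the set, CRE letters in 1.79% and in 0 of 9, and STAT letters in 8.30% and in 0 of 9. A match describes these letters in this window and says nothing about binding, and no match overlapped a match of another motif. A window without a match does not show that the gene lacks a site, since only exact letters in 1 window per gene were searched. The window of Atf3 (chr1:191183284-191183583) lies inside the span of the gene given above, away from its 5′ end.

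Gap43 and Basp1 encode related membrane-bound proteins of the growth cone that bind calmodulin and organise actin. Gap43 (chr16:42248442-42340651, minus strand) was at 145.8, 137.0 and 139.6 CPM in Sham, 157.8, 174.9 and 156.1 CPM in SCI, and 161.3, 148.6 and 154.6 CPM in SCI+FIPI. The log2 fold change of 0.21 ± 0.06 in SCI had an adjusted p of 0.00701 (edgeR) but stayed under the limit of 0.5. Once GC content and gene length were allowed for, this value was 0.15 (adjusted p = 0.0535, edgeR). Basp1 (chr15:25363277-25413764, minus strand) was at 153.6, 157.2 and 145.0 CPM in Sham, 171.4, 165.9 and 172.9 CPM in SCI, and 184.6, 158.1 and 153.5 CPM in SCI+FIPI. Its log2 fold change in SCI was 0.16 ± 0.07 (adjusted p = 0.0519, edgeR), and turned to -0.04 once GC content and gene length were allowed for. For both genes, the SCI mice were above the Sham mice by margins that are small beside those of Sprr1a.

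Gal encodes the neuropeptide galanin, which axotomised neurons release (chr19:3409915-3414544, minus strand). It was the scarcest of the set in counts, with 76 to 339 counts in any mouse. Its level was 3.64, 4.32 and 3.64 CPM in Sham, 12.6, 8.81 and 14.3 CPM in SCI, and 10.6, 6.82 and 7.47 CPM in SCI+FIPI. Every injured mouse was above every Sham mouse, and SCI mouse 2 lay within the range of the SCI+FIPI mice. The rise in SCI was 3.07-fold (1.62 ± 0.20 on the log2 scale, adjusted p = 1.13e-05, edgeR).

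Hspb1, the gene of the small heat shock protein known as HSP25 in mouse (chr5:135887919-135889563, plus strand), was at 52.9, 66.5 and 44.5 CPM in Sham, 217.8, 199.3 and 207.2 CPM in SCI, and 139.4, 146.6 and 194.7 CPM in SCI+FIPI. Again the 3 groups did not overlap. It rose 3.81-fold in SCI (1.93 ± 0.17 on the log2 scale, adjusted p = 1.59e-05, edgeR). The pseudogene Hsp25-ps1 is the main gene with which it shares sequence, at 51.6% of its 50-base stretches over 2 such genes, and this pseudogene had 0 counts in every mouse. How the counting treated reads that fit both is not given in the sources used here. The heat shock letters occurred in 7.86% of all windows and in 2 of the 9 windows of the set, those of Hspb1, with 2 matches that begin 117 and 97 bases before the start, and of Jun, with 1 match that begins 128 bases before it. Both stretches are shown along the gene with the matches in capitals (GRCm38.p6, Hspb1 chr5:135887782-135887849, plus strand, and Jun chr4:95052323-95052370, minus strand).
Hspb1: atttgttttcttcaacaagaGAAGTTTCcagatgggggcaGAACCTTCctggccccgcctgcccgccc
Jun: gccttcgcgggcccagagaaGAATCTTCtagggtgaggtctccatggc

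Per kilobase of exon the order of the 10 genes changed with injury. In Sham, Gap43 led with 92.4 ± 2.97 CPM per kb (SD, n = 3), followed by Basp1 with 75.6 ± 3.12 and Hspb1 with 53.0 ± 10.8. In SCI, Hspb1 led with 201.9 ± 9.02 CPM per kb, ahead of Gap43 with 107.0 ± 6.83 and Basp1 with 84.7 ± 1.86, and Sprr1a came to the fourth place with 73.9 ± 11.8 from the sixth in Sham with 6.86 ± 3.10. The same 4 genes led in SCI+FIPI, with Hspb1 at 155.4 ± 29.2 and Sprr1a at 49.98 ± 8.93 CPM per kb. Klf7 and Sox11 were at the bottom in every group, at 1.92 ± 0.05 and 1.91 ± 0.31 CPM per kb in SCI. Neighbors whose mice overlapped in level were Klf6 with Sprr1a, Sprr1a with Gal and Atf3 with Klf7 in Sham, Klf6 with Gal and Klf7 with Sox11 in SCI, and Sprr1a with Jun in SCI+FIPI.

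The comparison of SCI+FIPI with SCI asks whether the inhibitor altered the levels reached after injury. By the same limits none of the 10 genes rose or fell, while 3.06% of all genes were called in either direction and 0.695% fell. The DESeq2 and limma-voom fits also called 0 of the 10. At an unadjusted p under 0.05, 3 of the 10 were lower (Atf3, Gal and Klf6), against 11.5% of all genes. All 10 estimates were below 0, that of Klf7 at -0.00016 and at 0.02 with upper-quartile factors, against 50.3% of all genes, and the median was -0.29 against -0.001. The sign is shared by genes measured in the same 6 mice, which are not independent of each other. It is not particular to the 10 genes. Of the marker lists with a median above 0.5 in SCI against Sham, those of microglia and macrophages, endothelial cells and fibroblasts had medians of -0.39, -0.22 and -0.14 here. The Schwann cell markers went the other way, at 0.35.

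**Figure D2:**
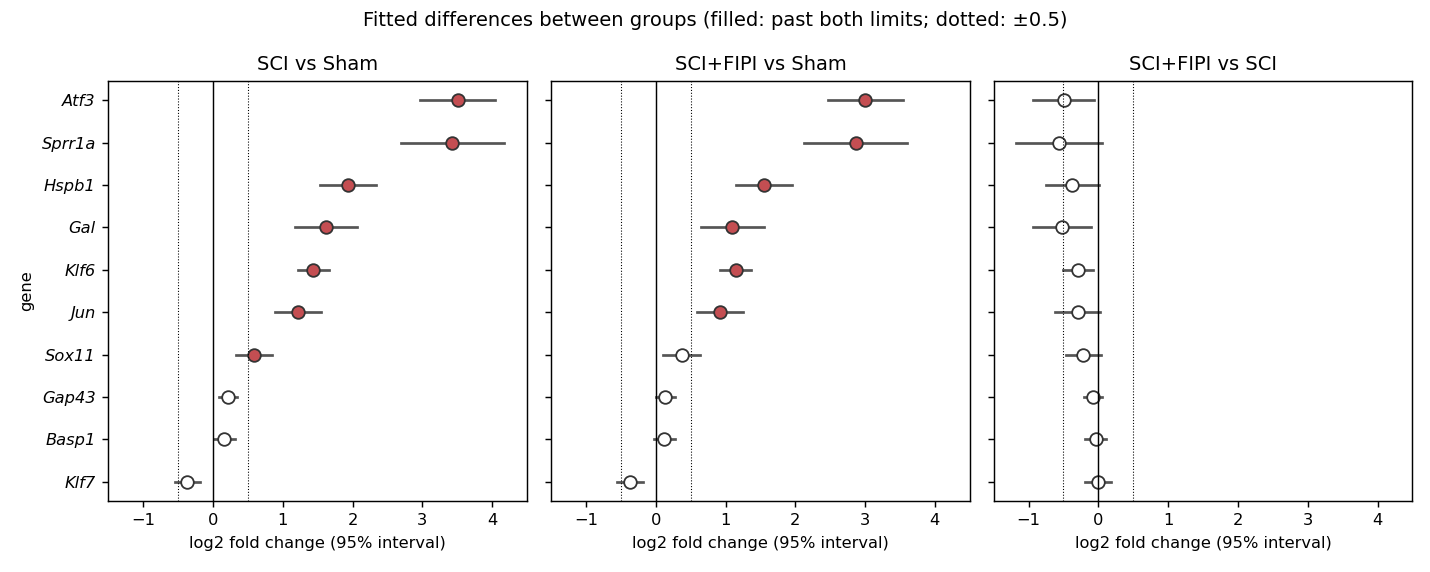
Fitted log2 fold change (x axis) of each of the 10 genes (y axis) in SCI vs Sham, SCI+FIPI vs Sham and SCI+FIPI vs SCI, with 95% intervals as lines, filled points for genes that passed both limits and dotted lines at ±0.5. Filled points number 7, 6 and 0, and in SCI+FIPI vs SCI all estimates lie between -0.56 and 0.

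The sizes of these differences were largest for Sprr1a, Gal and Atf3. The log2 fold change of Sprr1a was -0.56 (95% interval -1.18 to 0.05, adjusted p = 0.236, edgeR), that of Gal was -0.52 (-0.94 to -0.11, adjusted p = 0.105) and that of Atf3 was -0.50 (-0.94 to -0.06, adjusted p = 0.15). All SCI+FIPI mice were below all SCI mice for 3 genes, Atf3, Sprr1a and Hspb1, against 14.5% of all genes, and an exact permutation test of 3 mice against 3 cannot go under p = 0.1, the value these 3 reached. Gal passed the limits in 3 of the other fits, with -0.53 (adjusted p = 0.00379) when no filter on low counts was used, -0.70 (0.0432) without SCI mouse 2 and -0.74 (0.0336) without SCI+FIPI mouse 1. Its adjusted p is therefore sensitive to single mice, with 161 to 236 counts per mouse in SCI+FIPI.

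Klf6 had the smallest adjusted p of the set, with a log2 fold change of -0.29 (95% interval -0.51 to -0.08, adjusted p = 0.0862, edgeR). Behind Gal and Atf3 came Hspb1 with -0.38 (-0.76 to 0.002, adjusted p = 0.201), Jun with -0.29 (-0.62 to 0.03, adjusted p = 0.238) and Sox11 with -0.21 (-0.47 to 0.04, adjusted p = 0.293). These intervals leave room for no difference, except that of Klf6, as well as for decreases of up to -0.76 in Hspb1. The intervals of Gap43 (-0.20 to 0.06), Basp1 (-0.19 to 0.11) and Klf7 (-0.19 to 0.18) exclude changes as large as 0.5 in either direction.

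Compared with Sham, the injured mice given FIPI still showed most of the pattern. In SCI+FIPI 6 of the 10 genes rose (Atf3 8.02-fold, Sprr1a 7.29-fold, Hspb1 2.93-fold, Klf6 2.21-fold, Gal 2.14-fold and Jun 1.89-fold) and none fell, against 21.2% of all genes that rose and 38.1% called in either direction. Every SCI+FIPI mouse was above every Sham mouse for 8 of the 10 genes, against 33.4% of all genes. Sox11 was at a log2 fold change of 0.37 ± 0.12 (adjusted p = 0.0179, edgeR), under the limit of 0.5, and at 0.52, past the limit, once GC content and gene length were allowed for. This comparison shares its Sham mice with SCI vs Sham and its SCI+FIPI mice with SCI+FIPI vs SCI, so the 3 are not independent.

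Within each group, injured or not, the genes often ranked the same mouse low. Sham mouse 3 was the lowest of its group for 7 genes. SCI mouse 1 was the lowest for 5 (Atf3, Jun, Sox11, Sprr1a and Klf6) and the highest for Hspb1. SCI+FIPI mouse 2 was the lowest for 7 (Atf3, Jun, Sprr1a, Gap43, Gal, Klf6 and Klf7). The share of all genes with such an order was not counted, so nothing particular to the 10 genes is read from it. SCI mouse 1 and SCI+FIPI mouse 2 had the highest summed neuron markers of their groups, 2956 and 4079 CPM. They also had the lowest summed microglia and macrophage markers, 1710 and 1349 CPM. Sham mouse 3 had the lowest of its group in the latter, 298.5 CPM, but not the highest neuron markers. The 8 microglia and macrophage markers, all of which rose in SCI, summed to 298.5 to 409.7 CPM in Sham, 1710 to 2061 CPM in SCI and 1349 to 1575 CPM in SCI+FIPI. None of the 8 fell in SCI+FIPI against SCI, at a median log2 fold change of -0.39. The 6 fibroblast markers, which also all rose in SCI, summed to 350.4 to 939.3, 8816 to 11860 and 8146 to 10470 CPM. None of these marker genes was at 0 in all mice, and their part in the levels of the 10 genes was not tested.

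**Figure D3:**
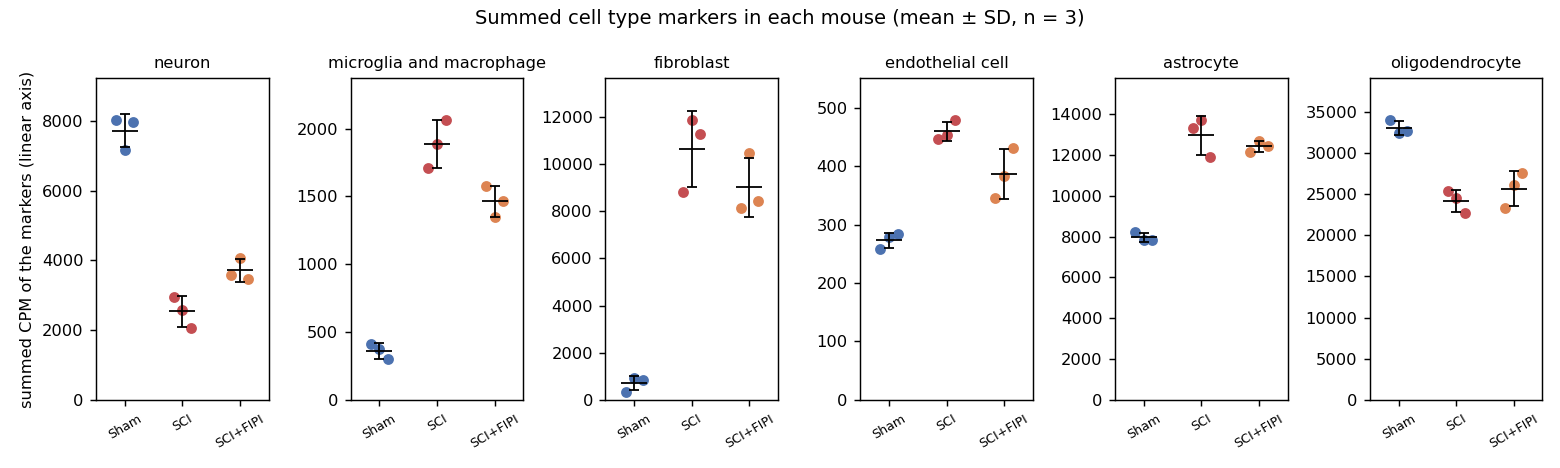
Summed CPM of the markers of 6 cell types (y axis, linear from 0, a scale for each panel) in the Sham, SCI and SCI+FIPI mice (x axis), with a point for each mouse and the mean ± SD. Neuron markers are lowest in SCI, with all SCI+FIPI mice above all SCI mice, and microglia and macrophage markers are highest in SCI, with all SCI+FIPI mice below.

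Markers of other cell types also differed between the groups. The 6 endothelial markers, of which 4 rose in SCI, summed to 259.0 to 283.4 CPM in Sham, 447.8 to 479.0 in SCI and 346.3 to 431.0 in SCI+FIPI, without overlap. The 6 astrocyte markers, of which 3 rose and 1 fell in SCI, summed to 7828 to 8221 CPM in Sham, 11890 to 13690 in SCI and 12150 to 12670 in SCI+FIPI. The part of either cell type in the levels of the 10 genes was not tested. For peripheral sensory neurons, in which the regeneration program is best known, the 8 markers summed to 6.66 to 12.5 CPM over all mice, and Scn10a and Mrgprd had at most 4 counts in any mouse. Among these markers Pou4f1 fell in SCI and rose in SCI+FIPI against SCI, and Avil rose in SCI. The 6 Schwann cell markers summed to 224.8 to 472.9 CPM in Sham, 419.0 to 538.3 in SCI and 263.8 to 798.5 in SCI+FIPI, a spread that crosses the groups. Bone markers summed to 15.8 to 16.7, 79.0 to 92.3 and 27.5 to 37.3 CPM, mostly from Col10a1 in SCI, and their part was not tested either.

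Each gene was also set beside the neuron markers, which fell in SCI, as the log2 of its CPM plus 0.5 over the summed neuron markers in the same mouse. The summed markers differed by -1.62 on the log2 scale between SCI and Sham, so that every gene was shifted up by this amount. On this scale Atf3 differed by 5.05, Sprr1a by 5.005, Hspb1 by 3.56, Gap43 by 1.83, Basp1 by 1.78 and Klf7 by 1.26. All 10 were above Sham in every SCI mouse, but so were 95.3% of all genes tested, and all 10 were above Sham in every SCI+FIPI mouse, against 90.7% of all genes. Against SCI, all 10 were below in every SCI+FIPI mouse, from -0.56 for Klf7 to -1.12 for Sprr1a, against 72.7% of all genes, with summed markers 0.56 higher. Since most genes of the table shared these patterns, nothing particular to the 10 genes is read from them, and no exact permutation p of 3 against 3 mice goes below 0.1.

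**Figure D4:**
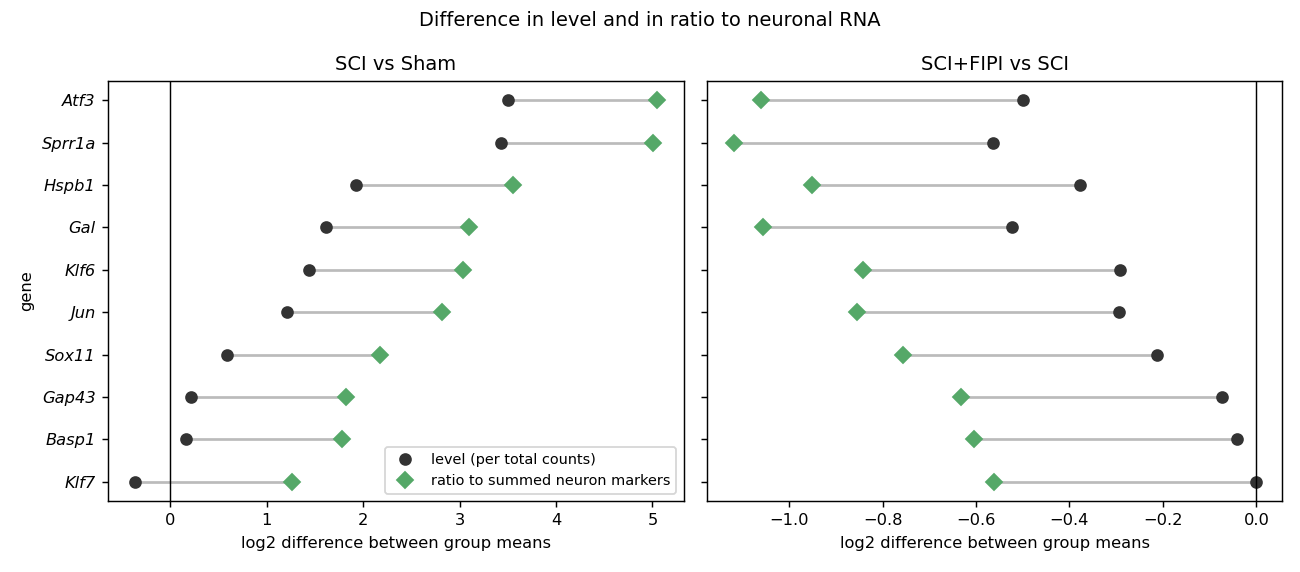
Log2 difference between groups (x axis) of the 10 genes (y axis) in SCI vs Sham and SCI+FIPI vs SCI, as the fitted level (circles) and as the difference in mean ratio to the summed neuron markers (diamonds). The diamonds lie to the right of the circles by about the same step for every gene on the left panel and to the left of them on the right panel.

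The partners of these genes were read from wider lists. Of 12 AP-1, ATF and C/EBP genes, which dimerise with or resemble JUN and ATF3, 6 rose in SCI, 1 fell and 5 did not pass. Junb rose from 20.9 ± 2.53 to 102.9 ± 22.9 CPM (SD, n = 3), Cebpb from 1.51 ± 0.97 to 9.03 ± 3.95 CPM, and Atf2 fell from 68.8 ± 3.82 to 45.2 ± 2.89 CPM. In SCI+FIPI against SCI none of the 12 passed, and the median log2 fold change was -0.17. Of 12 other transcription factors of the regeneration literature, 9 rose and none fell in SCI, with Sox4, a relative of Sox11, at 1.55 ± 0.12 and the growth regulator Myc at 1.73 ± 0.16 on the log2 scale. Here 2 fell in SCI+FIPI against SCI, where 0.695% of all genes fell. With a mouse left out, the number of all genes called there ran from 189 to 1038. Myc went from 22.9 ± 2.496 to 15.5 ± 1.51 CPM (log2 fold change -0.56, adjusted p = 0.0384, edgeR), and Nfil3, a repressor of CREB and C/EBP target genes, from 17.2 ± 1.80 to 10.7 ± 1.20 CPM (-0.68, adjusted p = 0.0164).

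The KLF family, in which some members favor and others restrain axon growth, had 15 tested genes out of 17, Klf6 and Klf7 included. In SCI 7 rose, 2 fell and 6 did not pass, and none passed in SCI+FIPI against SCI. Klf5 rose by 2.01 ± 0.44 and Klf2 by 1.72 ± 0.34 on the log2 scale, and Klf12 fell by 0.66 on it. Klf4, known as a brake on axon growth, rose by 1.37 ± 0.34.

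Of 20 genes of the growth cone and axon cytoskeleton, the company of Gap43 and Basp1, 9 fell, 4 rose and 7 did not pass in SCI, at a median log2 fold change of -0.43. Nrn1, which encodes neuritin, fell by 1.92 and Stmn3, a stathmin that acts on microtubules, fell by 1.38 on the log2 scale. Both rose in SCI+FIPI against SCI, Nrn1 from 13.5 ± 1.68 to 19.9 ± 1.33 CPM (adjusted p = 0.00557, edgeR) and Stmn3 from 155.4 ± 21.3 to 223.7 ± 17.4 CPM (adjusted p = 0.005). Their log2 fold changes were 0.552 and 0.525, beside a median of 0.563 for the 12 neuron markers, of which 8 rose. Of all genes, 3.06% were called there in either direction. The part of the higher neuronal RNA in these 2 rises was not tested. On the other side, Tubb6, a beta-tubulin, rose by 2.45 ± 0.09 and Marcks, an actin-binding protein with a role like that of GAP43 and BASP1, rose by 1.33 ± 0.08 in SCI. Gap43 and Basp1 sat between these extremes.

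**Figure D5:**
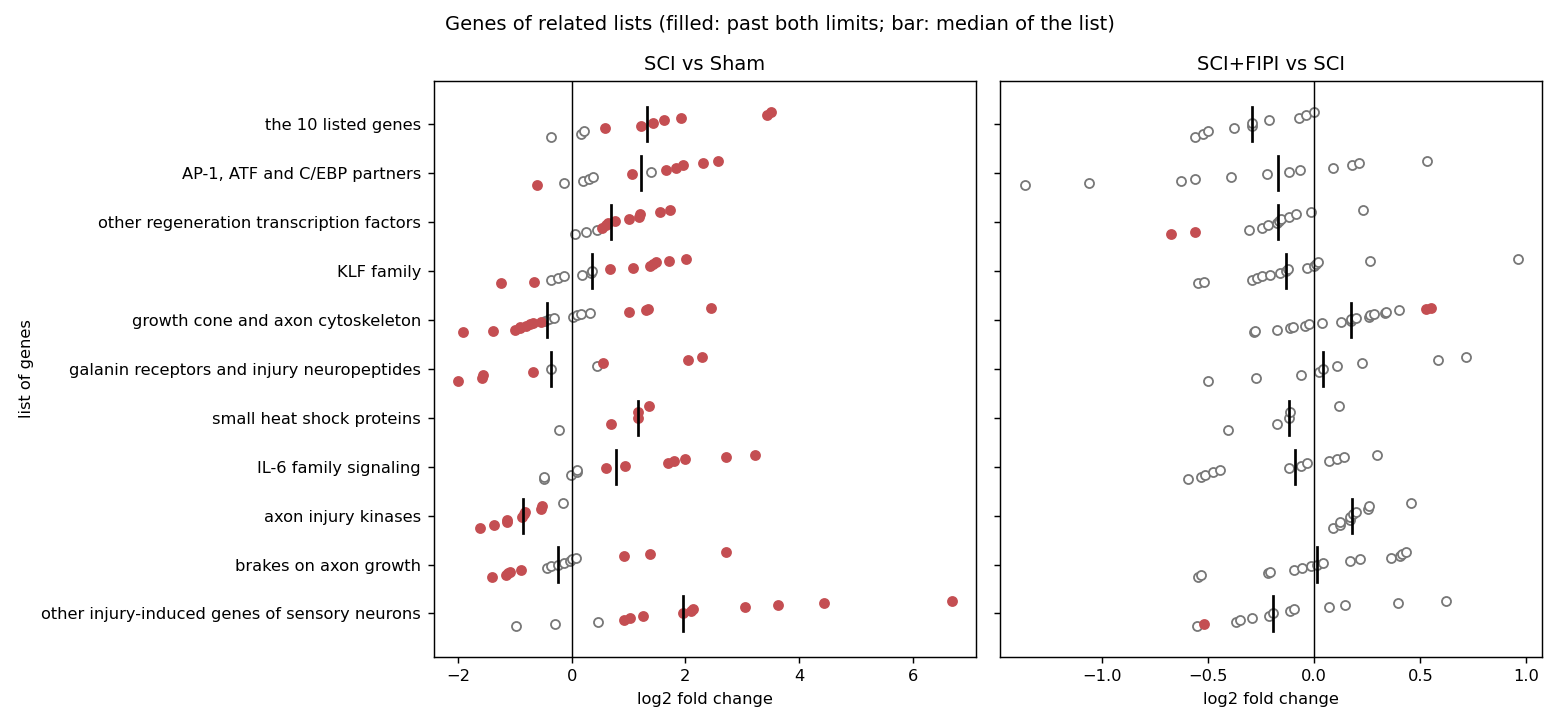
Log2 fold change (x axis) of the tested genes of the 10 genes and of 10 wider lists (y axis) in SCI vs Sham and SCI+FIPI vs SCI, with a point for each gene, filled where it passed both limits, and a bar at the median of the list. In SCI vs Sham the medians run from -0.86 for the axon injury kinases to 1.95 for the other injury-induced genes, and in SCI+FIPI vs SCI there are 5 filled points, Myc, Nfil3, Nrn1, Stmn3 and Plaur.

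Around galanin, 9 receptors and neuropeptides were read, of which 3 rose, 4 fell and 2 did not pass in SCI. Crh, the gene of corticotropin-releasing hormone, rose by 2.04 ± 0.20 and Adcyap1, the gene of the neuropeptide PACAP, by 0.54 ± 0.16 on the log2 scale. Cck fell by 1.59 and Nts fell by 0.67. The galanin receptors, named here after their values were seen, were scarce: Galr1 fell from 2.12 ± 0.28 to 0.53 ± 0.16 CPM, Galr3 rose from 0.66 ± 0.46 to 3.26 ± 0.55 CPM and Galr2 did not pass. None of the 9 passed in SCI+FIPI against SCI.

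Hspb1 was joined by other small heat shock genes, of which 4 of the 5 tested rose in SCI and none fell. Hspb6 rose by 1.36 ± 0.08 and Hspb7 by 1.16 ± 0.33 on the log2 scale, the latter at only 11 to 73 counts per mouse. None of the 5 passed in SCI+FIPI against SCI.

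Signaling genes linked to axon injury went both ways. In the IL-6 family, whose cytokines act through STAT3, 7 of 12 tested genes rose in SCI and none fell, with Socs3, a feedback inhibitor of STAT3, at 2.71 ± 0.27 and Osmr, the oncostatin M receptor, at 2.00 ± 0.11. Of 10 axon injury kinases and partners, 9 fell and none rose. Mapk10, the gene of the neuronal kinase JNK3, fell by 1.61 and Map3k13, which encodes the kinase LZK, fell by 1.37 on the log2 scale. The median log2 fold change of this list in SCI was -0.86, against -1.64 for the 12 neuron markers. Of all 18699 genes tested, 24.4% rose and 4209 genes fell. The part of the lower neuronal RNA in these falls was not tested. None of either list passed in SCI+FIPI against SCI, the kinases and partners at a median log2 fold change of 0.18, beside 0.56 for the neuron markers.

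Of 15 brakes on axon growth, 3 rose, 5 fell and 7 did not pass in SCI. Of all genes, 24.4% rose there and 47.0% were called in either direction. None of the 15 passed in SCI+FIPI against SCI. Socs3 and Klf4, counted above as well, had the largest rises, and Cacna2d2, a calcium channel subunit, fell by 1.41 and Omg, the gene of a myelin glycoprotein that stops axons, fell by 1.16. Of 13 tested genes from other genes induced in injured sensory neurons, 10 rose in SCI and none fell. Arg1, the arginase gene, had 2 to 26 counts in the Sham mice and 1007 to 2347 in the SCI mice. This gene is also made by macrophages. Plaur, the urokinase receptor, was the only one to fall in SCI+FIPI against SCI, where 0.695% of all genes fell. It went from 32.7 ± 6.26 to 22.8 ± 1.82 CPM (log2 fold change -0.52, adjusted p = 0.039, edgeR). Changes in all these lists are counts beside the background given above, and the lists overlap in Klf6, Klf7, Klf4 and Socs3, among others.

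The genes whose log2 CPM ran most like each member over the 9 mice were picked among 14552 genes by Pearson correlation, as a description. Such values largely reflect the step from Sham to the injured groups, which share libraries and depth. Among the nearest to Atf3 were Slc15a3, a lysosomal transporter (r = 0.9987), and Lgals3, the galectin of phagocytes (r = 0.9986). Klf6 was nearest to Ralb (r = 0.998) and then to Tlr2 and Tlr4, receptors of innate immunity, and Sprr1a to H2-K1 (r = 0.997), Ezr and H2-D1. Jun was nearest to its relative Junb (r = 0.992), Hspb1 to Trafd1 (r = 0.996), Gal to Ctns (r = 0.992), Klf7 to Vopp1 (r = 0.984) and Sox11 to Mrpl33 (r = 0.983). The values were lower for Gap43, with Alg9 (r = 0.965), and for Basp1, with Alkbh3 (r = 0.966).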

How the data were processed

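The libraries were made from oligo(dT)-selected RNA of spinal cord that held the injury site, from 9 mice in 3 groups (Sham, SCI, SCI+FIPI) of 3. The authors trimmed poor-quality bases and adapters, and deposited raw counts for 52550 genes, without normalization. The submitters' processing notes name GRCm38 and R 4.2.3. Aligner, counting program and use of strand are not given in the sources used here. No column was left out. GENCODE M21 held 52403 of the gene identifiers, and promoter windows come from RefSeq on GRCm38.p6. Protein sequences were not used here.

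Tests were run with edgeR 4.0.16 in R 4.3.3: TMM factors, filterByExpr by group (18699 genes kept), and a robust quasi-likelihood fit of all 9 mice with a mean for each group. The p-values were adjusted by Benjamini-Hochberg over all genes tested. The limits, an absolute log2 fold change of 0.5 and an adjusted p of 0.05, follow the study, whose methods name no test. The fit's common dispersion, 0.00866, corresponds to a coefficient of variation between mice of 9.3%. CPM used TMM-scaled totals, log2 CPM had a prior count of 2, and CPM per kb was divided by exonic length. Single values were compared by two-sided exact permutation tests, which cannot give less than 0.1 here. The labels number the mice within each group and say no more about them, so p-values measure the spread between these samples. Replicates differed by more than sampling noise (chi-square of 6.59 to 12.8 per gene).

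The 10 genes, the wider lists and the markers were chosen with earlier results of these data known. Named from the lists were genes called in SCI+FIPI against SCI (up to 4 a list) and the 2 largest rises and falls called in SCI against Sham, where their log2 CPM averaged 1 or more, and for each of the 10 genes its 3 nearest by correlation. Some of the genes this rule names are not reported here. As alternatives the factors were set by RLE or upper quartile, the filter on low counts was dropped or raised to 10 counts in every mouse, DESeq2 1.42.0 or limma-voom 3.58.1 replaced edgeR, only the 2 groups compared were fitted, a replicate block or offsets for GC content and length were added, and each mouse was left out. The edgeR script was tested on simulated data. Python 3.11.15 with numpy 2.4.6, scipy 1.17.1, pandas 2.3.3 and matplotlib 3.10.9 made the other tables and figures.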

Additional observations from a re-analysis of the deposited data

How the results depend on the processing

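The number of the 10 genes called in SCI against Sham was 7 in each alternative that kept all mice and 6 to 7 with a mouse left out, and in SCI+FIPI against Sham it was 6 to 7 and 6. In SCI+FIPI against SCI it was 0, except 1, which was Gal, without a filter on low counts and in the range of 0 to 1 with a mouse left out. All mice together gave 572 called genes there, and leaving 1 out gave as few as 189 (SCI+FIPI mouse 2 absent), 240 (SCI mouse 3 absent) or 341 (SCI mouse 2 absent) and as many as 1038 (SCI mouse 1 absent). In the other comparisons it ran from 8373 to 8851 in SCI against Sham and from 6675 to 7186 in SCI+FIPI against Sham with a mouse left out. The sign changed for Basp1 and Klf7 alone, at values near 0 that never passed the limits. Basp1 was at -0.043 in SCI against Sham and at -0.094 in SCI+FIPI against Sham with offsets for GC content and length, at -0.043 and -0.098 when a replicate block was added to them, and in SCI+FIPI against SCI it ran from -0.128 to 0.01 with a mouse left out (0.01 without SCI+FIPI mouse 3). Klf7 in SCI+FIPI against SCI was at 0.02 with upper-quartile factors, 0.006 with at least 10 counts in every mouse, 0.005 in the fit of the 2 groups and 0.0 with the replicate block, and it ran from -0.031 to 0.038 with a mouse left out (0.022 without SCI mouse 2, 0.038 without SCI+FIPI mouse 2). The replicate block left the calls at 7, 0 and 6 of the 10 genes. It gave 8744, 555 and 7115 genes in all, against 8780, 572 and 7128. Deviations of mice with the same number had small correlations, mostly above 0 (r of -0.0726 to 0.1085). For mice of other numbers r ran from -0.1081 to 0.0889. The causes of these shifts were not tested. With 3 mice a group, Gal had the fewest counts of the 10 (76 to 339), and the largest standard errors were those of Sprr1a (0.258 to 0.312 on the log2 scale).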
